A study of Mytilus galloprovincialis with 16 samples.

Results

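Of the 1920 cDNA clones on the mussel array, 51 (2.66%) had their lowest relative mRNA abundance in stage 3 of the male gonad cycle, the ripe stage, between higher levels in the stages before and after it. They were chosen on the log2 ratios that the authors deposited, later stage over earlier, averaged over the duplicate spots of a clone and the 4 arrays of a pair of stages. A clone was taken when stage 3 over stage 2 was at most -0.3 and stage 4 over stage 3 at least 0.3, each with the same sign on all 4 arrays, and when stage 2 over stage 1 was below 0.3. The falls, the rises and the ratio of stage 2 to stage 1 therefore describe how the clones were picked. Only the 4 arrays that set stage 4 directly against stage 1 took no part in the choice.

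All samples were mantle tissue of single male Mytilus galloprovincialis from a natural population in the Bizerta Lagoon, Tunisia. Stage 1 is the early stage, stage 2 development, stage 3 the ripe stage and stage 4 spawning, and these were sampled in November, January, February and March, so stage cannot be told apart from month. Each of 16 dual-colour arrays compared a mussel of one stage with a mussel of another. There were 4 arrays each of Stage2/Stage1, Stage3/Stage2, Stage4/Stage3 and Stage4/Stage1, which close a loop, and on 2 of each 4 the Cy5 dye marked the later stage and on the other 2 the earlier. The labels do not say whether a mussel was used on more than 1 array, so the errors measure the spread between arrays, and the labels of Stage3/Stage2 replicate 1 give its stage 3 mussel conflicting months. A spot was taken as above background when its foreground lay over 2 SDs of the local background above that background's median. Of the clones per array, 23.9% to 80.9% passed in Cy5 and 24.2% to 67.6% in Cy3.

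In mussels the gonad grows within the mantle. Male follicles fill with germ cells and then sperm as the animal ripens, while the storage tissue of the mantle, with its glycogen-filled vesicular cells and its adipogranular cells, is drawn down. After spawning the follicles empty. The array measures RNA of the whole piece of mantle, and with bulk tissue fewer cells of a type and less RNA per cell cannot be told apart. The sources used here pair no clone with a gene, so the clones are given by their plate position, no gene or cell type is assigned to them, and the tissue label could not be checked against marker genes.

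**Figure D1:**
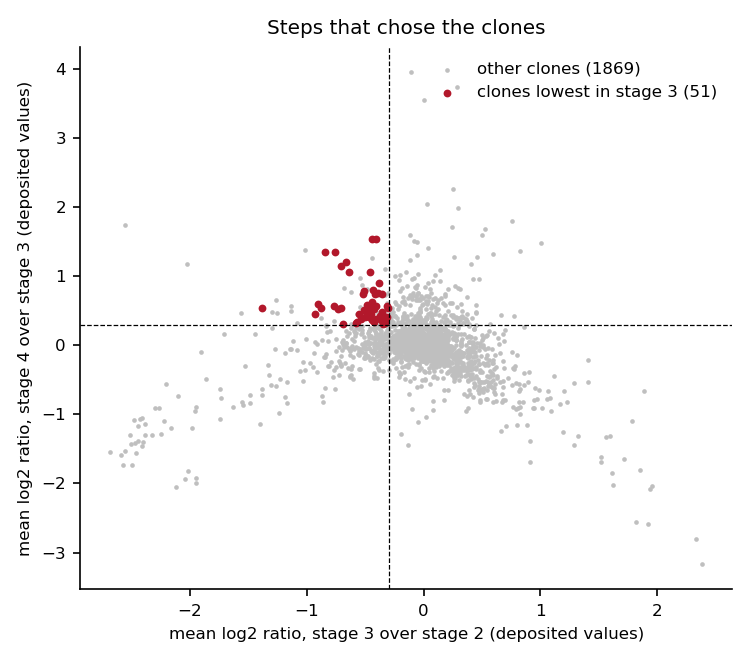
Mean deposited log2 ratio of stage 3 over stage 2 (x axis) and of stage 4 over stage 3 (y axis) for each of the 1920 clones, with dashed lines at -0.3 and 0.3. The 51 chosen clones (red) lie in the upper left field, where the other clones past both lines failed on the sign of single arrays or on stage 2 over stage 1.

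On the deposited values the 51 clones fell by 0.31 to 1.38 from stage 2 to stage 3 on the log2 scale, with a median ratio of -0.45, and rose by 0.31 to 1.53 from stage 3 to stage 4, with a median of 0.52. The fall alone was met by 337 clones (17.6%) and the rise alone by 273 (14.2%). Both were met by 69, of which 18 had risen by 0.3 or more from stage 1 to stage 2 and were left out. Clones lay close to each limit on both sides. Myt01-017A01 was inside at -0.31 for stage 3 over stage 2 and Myt01-013H04 outside at -0.29. Myt01-010D11 was inside at 0.313 for stage 4 over stage 3 and Myt01-011H05 outside at 0.295. Myt01-015E02 was inside at 0.28 for stage 2 over stage 1 and Myt01-009E08 outside at 0.34.

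Ratios recomputed from the scanner intensities, used from here on, were smaller in the median. It was -0.10 for stage 2 over 1, -0.39 for stage 3 over 2 and 0.44 for stage 4 over 3, with a median of -0.02, -0.01 and -0.01 over all clones. By the same rule on these values, 43 clones were found, 32 of them among the 51. Of the 19 others, 13 missed the limit or the sign for the fall and 12 for the rise, 6 of them both. In 1 clone, Myt01-001C04, the mean turned positive: its 4 stage 3 over stage 2 ratios were 0.0051, 0.24, 0.00085 and 0.12 on the scanner values, against a deposited mean of -0.33. In 30 clones each of the duplicate spots met the rule by itself, in 20 only 1 spot did, and in 1 neither did.

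The clones were bright. Both channels were above background on at least 8 arrays for 46 of them (90.2%), against 793 of all clones (41.3%), 75.2% of the 129 clones that ran the opposite course and 65% of the 140 that fell to stage 3 and then held. Their median log2 intensity was 9.01, against 7.17. In stage 3, where the clones were lowest, 38 were still above background in all 8 channels, with 43 in stage 2, 43 in stage 4 and 33 in stage 1. On the Stage2/Stage1 arrays 5 clones (Myt01-001F11, Myt01-011E08, Myt01-011F02, Myt01-012B12 and Myt01-014D11) were not well above background in any stage 1 channel, so their ratio there is only a bound, and the same held for Myt01-013B09 in stage 3 on the Stage4/Stage3 arrays. On the Stage4/Stage1 arrays Myt01-001F11 and Myt01-013B09 were not well above background in either stage, and no size is read from their ratio.

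**Figure D2:**
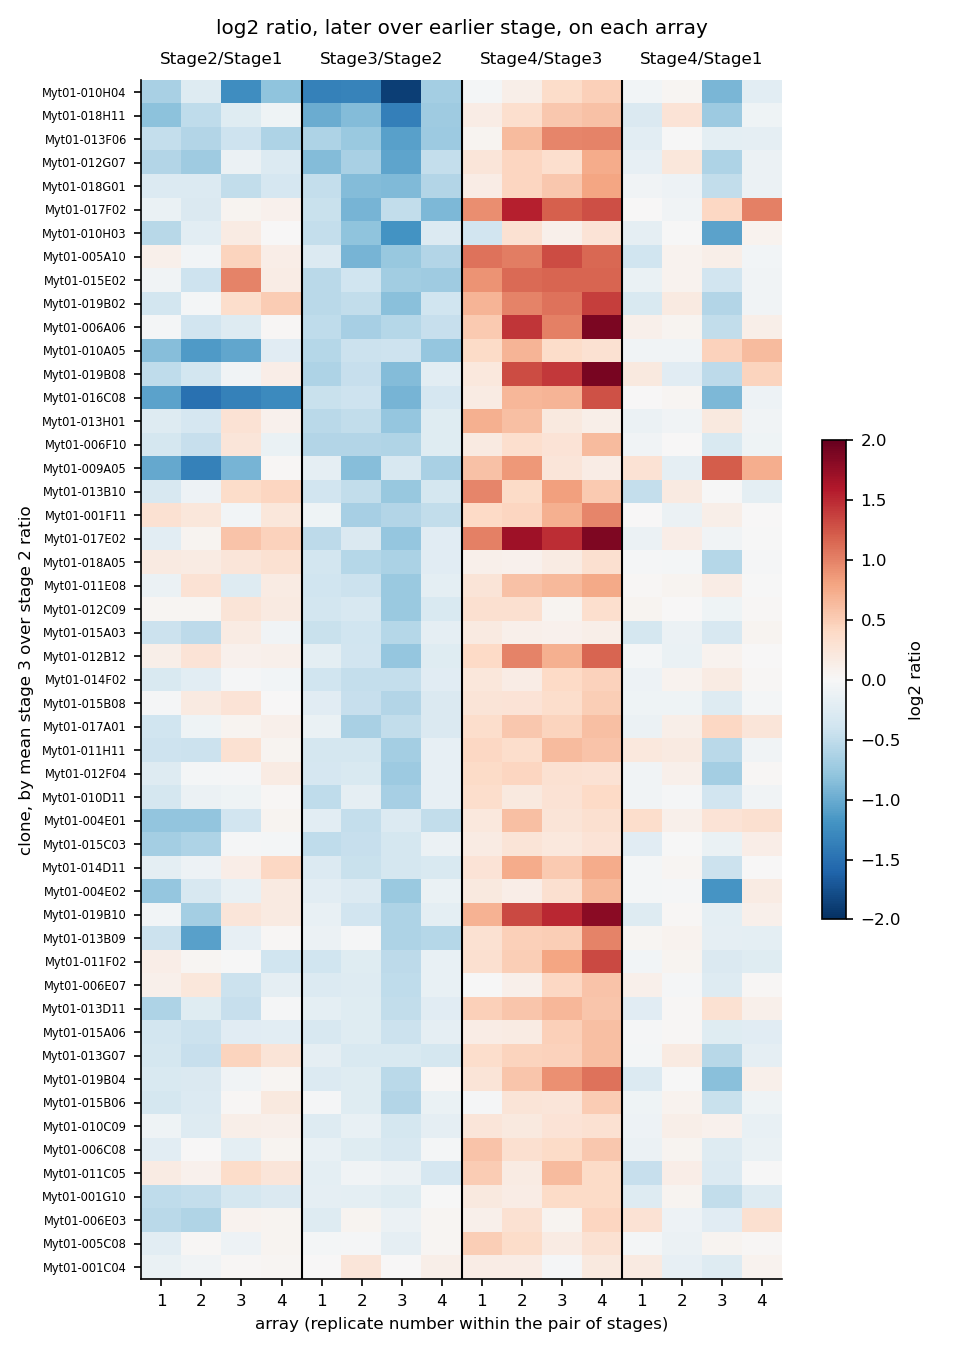
log2 ratio (colour) of each of the 51 clones (rows, ordered by the mean ratio of stage 3 over stage 2) on each of the 16 arrays (columns, 4 replicates per pair of stages), later stage over earlier. The second block of columns is blue and the third red by the choice of the clones, whereas the fourth, stage 4 over stage 1, is mixed and bluest on replicate 3.

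The fall to the ripe stage differed in depth between arrays and between clones. The median over the 51 clones was -0.35, -0.41, -0.59 and -0.24 on the 4 Stage3/Stage2 arrays. Myt01-010H04 fell furthest, with ratios of -1.36, -1.34, -1.89 and -0.67 (mean -1.31 ± 0.50, SD, n = 4). Next came Myt01-018H11, with -0.99, -0.88, -1.37 and -0.70 (mean -0.98 ± 0.28, SD, n = 4). For both clones all 4 arrays lay below 0 and the third was the lowest, as it was for the median clone. In a linear model over all 16 arrays, a limma adjusted p of 0.05 was passed downwards from stage 2 to stage 3 by 39 of the 51, where 14.1% of all clones passed, and from stage 1 to stage 3 by 47, where 10.1% of all clones passed. From stage 1 to stage 3 the count was 30 with the replicate number as a block, 26 without the Stage4/Stage1 arrays and 15 with median centring. Of all 1920 clones 320, 457 and 178 passed in these settings in either direction, against 427. The block also took up an offset common to all ratios. With it, stage 3 over stage 1 rested only on the Stage4/Stage1 and Stage4/Stage3 arrays, so the 30 is not an adjustment for replicate alone. Nothing is read from these counts, since the same arrays chose the clones.

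The return at spawning was uneven. Median ratios of stage 4 over stage 3 were 0.28, 0.43, 0.44 and 0.57 on the 4 arrays. Of the 51, 8 rose by 1 or more, as did 39 of all 1920 clones, and the rule itself asked for a rise. Among the 51, Myt01-017E02 rose most, with 1.01, 1.70, 1.48 and 1.86 (mean 1.51 ± 0.37, SD, n = 4). Myt01-019B10 followed with 0.70, 1.32, 1.51 and 1.81 (mean 1.34 ± 0.47, SD, n = 4). Both had every array above 0 and their smallest rise on replicate 1. In the model 42 of the 51 passed upwards from stage 3 to stage 4, where 11.6% of all clones passed. With median centring it was 20, where 258 of all 1920 clones passed in either direction, against 462. The choice also shaped this count.

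Stage 4 was set against stage 2 on no array. Through stage 3 its median ratio to stage 2 was 0.10 over the 51 clones, from -1.08 to 1.06, against 0.00094 over all clones. In 36 of the 51 it lay within 0.3 of 0, a share that was not counted over all clones. The rule asked for both a fall and a rise, so this sum was partly set by the choice and no return is read from it. The 8 clones that rose by 1 or more (Myt01-005A10, Myt01-006A06, Myt01-015E02, Myt01-017E02, Myt01-017F02, Myt01-019B02, Myt01-019B08 and Myt01-019B10, grouped after their values were seen) all ended 0.47 to 1.06 above stage 2 by this route. The grouping largely set this, since the rise is part of the route. From stage 1 to stage 4 the steps of these 8 added to a median of 0.62, against -0.06 on the direct Stage4/Stage1 arrays. For the other 43 the medians were -0.10 and -0.11. The falls of the 8, -0.69 to -0.34, lay inside the range of the other 43 clones, -1.31 to 0.09, which ended between -1.08 and 0.44 relative to stage 2.

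From stage 1 to stage 2 the clones ranged from a fall to a small rise. On the deposited values 18 of the 51 had already fallen by 0.3 or more, as had 198 of all 1920 clones, and 33 had not. On the scanner values 14 of the 51 had, 13 of them among the 18. Array medians over the 51 clones were -0.32, -0.27, -0.02 and 0.05 on the 4 Stage2/Stage1 arrays, so replicates 1 and 2 were low and replicates 3 and 4 near 0. In the model the median change was -0.12, and it turned to 0.08 when arrays were only centred on their median, so no direction is given for the whole set here. Myt01-016C08 fell most, with -1.07, -1.5, -1.36 and -1.27 (mean -1.30 ± 0.18, SD, n = 4), and then had a mean of -0.53 from stage 2 to stage 3. In the model its stage 3 over stage 1 change was -1.38 ± 0.20 (model SE), between -1.83 through stage 2 and -0.93 through stage 4. Myt01-009A05 had -1.02, -1.34 and -0.93 on replicates 1 to 3 and 0.03 on replicate 4 (mean -0.81 ± 0.59, SD, n = 4). Among the clones that were higher in stage 2, Myt01-018A05 had 0.19, 0.17, 0.25 and 0.30 (mean 0.23 ± 0.06, SD, n = 4) and Myt01-011C05 had 0.16, 0.08, 0.37 and 0.25 (mean 0.22 ± 0.13, SD, n = 4). All 4 arrays were above 0 for these 2 clones on the scanner values, but on the deposited values none of the 51 was above 0 on all 4. The means of these clones moved with the processing, to 0.10 and 0.10 on the deposited values and 0.58 and 0.58 with median centring. In the model 5 clones passed downwards from stage 1 to stage 2 (Myt01-001G10, Myt01-013D11, Myt01-013F06, Myt01-015A06 and Myt01-016C08, listed after their values were seen), where 3.44% of all clones passed. Without the direct Stage4/Stage1 arrays 10 passed downwards, where 161 of all 1920 clones passed in either direction.

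The 4 Stage4/Stage1 arrays ask whether the clones that dipped in the ripe stage returned at spawning to their early level. No clone passed: 0 of the 51 and 0 of all 1920 (0%) reached an adjusted p of 0.05 in limma on these 4 arrays, and 2 of the 51 and 32 of all clones had an unadjusted p under 0.05. The smallest adjusted p was 0.892. A p that misses this limit does not show that early and spawning levels were equal. The replicates of this comparison also hardly repeated each other clone by clone. The median correlation between its arrays was r = 0.05 over all clones. Over the 51 clones it was -0.04, with single pairs of arrays from -0.455 to 0.48. Replicates of the other comparisons had median correlations of 0.489 to 0.781 over all clones. Why the direct arrays were so weakly correlated was not tested. The direct ratios of the 51 clones ran from -0.30 to 0.51 with a median of -0.10, against 0.01 over all clones and -0.01 over the 793 clones above background. Below 0 were 41 of the 51 (80.4%), against 47.3% of all clones and 52.1% of those above background, but 5 clones (9.8%) were below 0 on all 4 arrays, against 5% of all clones.

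The shift of the median was largest on 1 array. Medians of the 51 clones were -0.07, 0.02, -0.26 and -0.0029 on replicates 1 to 4. Below 0 were 37, 21, 37 and 27 of them, as many on replicate 1 as on replicate 3. Replicate 3 held the lowest value for 29 of them (56.9%), against 33.1% of all clones. It was also the array with the widest spread, with an SD of 0.33 over all clones and 0.20 to 0.22 on the other 3. Without replicate 3 the median was -0.03 and 34 of the 51 (66.7%) were below 0, against 47.3% of all clones. Leaving out another array instead gave medians of -0.14 to -0.11. With all 4 arrays the median was -0.23 with median centring alone and -0.05 without background correction.

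**Figure D3:**
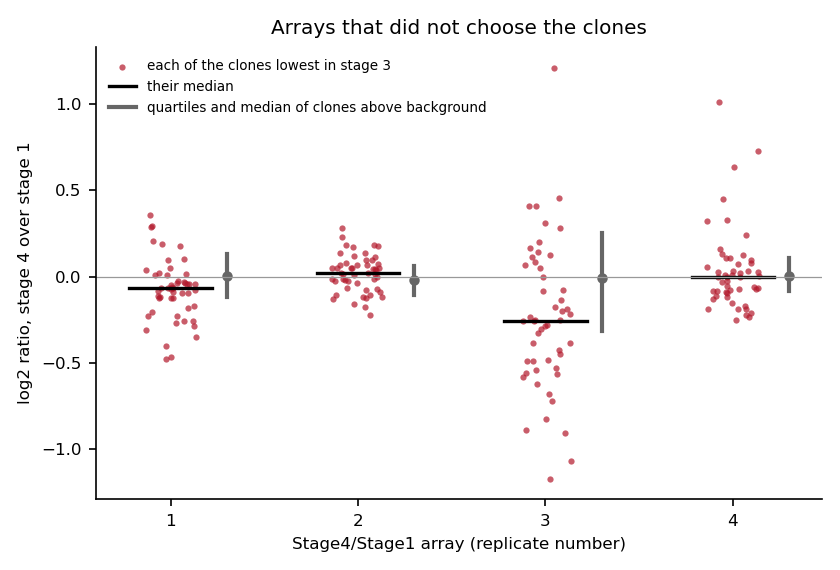
log2 ratio of stage 4 over stage 1 (y axis) of each of the 51 clones (red points) on the 4 Stage4/Stage1 arrays (x axis), with their median (black line) and, in grey, the quartiles and median of the 793 clones above background. On replicate 3 the median of the 51 clones is -0.26 and the grey bar is longest, while on replicates 2 and 4 the points centre near 0.

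The clones with the lowest direct ratios show the same array. Myt01-010H03 had -0.19, -0.0049, -1.07 and 0.08 (mean -0.30 ± 0.53, SD, n = 4, limma adjusted p = 0.892). Myt01-010H04, the clone with the deepest fall, had -0.05, 0.05, -0.91 and -0.21 (mean -0.28 ± 0.43, SD, n = 4, limma adjusted p = 0.892). For both the SD was larger than the mean and replicate 3 stood below the other 3, without which the means were -0.04 and -0.07. At the other end, Myt01-009A05 had 0.29, -0.18, 1.21 and 0.73 (mean 0.51 ± 0.60, SD, n = 4, limma adjusted p = 0.892) and Myt01-017F02 had 0.01, -0.07, 0.41 and 1.01 (mean 0.34 ± 0.50, SD, n = 4, limma adjusted p = 0.892). These were the 2 clones above 0.3 on the scanner values, and in each 1 array was below 0. The mean of Myt01-009A05 was 0.23 on the deposited values, 0.25 with loess over the whole array, 0.11 with median centring and 0.28 without replicate 3. For Myt01-017F02 it was 0.11 without replicate 4 and 0.53 or 0.54 with loess over the whole array or on the deposited values. Steadier was Myt01-004E01, named after its values were seen as the 1 clone above 0 on all 4 arrays, with 0.36, 0.10, 0.28 and 0.32 (mean 0.26 ± 0.12, SD, n = 4, limma adjusted p = 0.892).

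Other clones with a ripe-stage change differed on these arrays as well, given as values only. The 129 clones of the opposite course, chosen because they rose to stage 3 and fell to stage 4 by the same limits with the signs turned, had a median direct ratio of 0.07, with 26.4% below 0 and a median of 0.10 on replicate 3. The 140 clones that fell to stage 3 and then held had a median of -0.07, with 77.1% below 0 and a median of -0.27 on replicate 3. Without replicate 3 these medians were 0.05 and -0.0089. On replicate 3 and in the median, the 51 clones lay closer to the 140 clones than to those of the opposite course. The 3 steps from stage 1 to stage 4 added to a median of -0.53 in the 140 and 0.18 in the 129, so their direct medians were nearer 0 than their steps. The sets differ in stage 4 over stage 3 by choice, and no test between them was made.

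Going round the loop, the 3 steps from stage 1 to stage 4 did not always add up to the direct ratio. The sum of the steps had a median of -0.06 over the 51 clones, -0.53 in the 18 that had fallen by stage 2 and 0.17 in the 33 others, while the direct medians of these 2 groups were -0.16 and -0.08. Part of the gap in the sum was set by the split, since stage 2 over stage 1 is one of the summed steps, with group medians of -0.41 and -0.04. In a fit with a mean for each pair of stages, the sum and the direct ratio differed in 6 of the 51 (11.8%) at an adjusted p of 0.05 in limma, where the share was 11.7% of all clones, 5.57% with the higher sum and 6.15% with the lower, and 20.9% of the 793 clones above background. The sum was higher for Myt01-017E02 and Myt01-005A10 and lower for Myt01-010H04, Myt01-009A05, Myt01-010A05 and Myt01-004E01. For Myt01-017E02 the steps added to 1.28 and the direct ratio was -0.02 ± 0.11 (SD, n = 4), from arrays at -0.12, 0.14, -0.08 and -0.01. For Myt01-010H04 the steps added to -1.82, against -0.28 measured directly. Both clones thus had a large sum of steps and a smaller mean direct ratio, on direct arrays whose replicates were hardly correlated. Stage 3 was set against stage 1 on no array. Its ratio to stage 1 through stage 2 differs from that through stage 4 by the same amount as the sum from the direct ratio. This difference was within 0.3 in 24 of the 51 clones, and the share over all clones was not counted. The medians of stage 3 over stage 1 in the 51 were -0.48 through stage 2 and -0.51 through stage 4. Clones differed in both directions, and each route held a step that chose the clones.

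**Figure D4:**
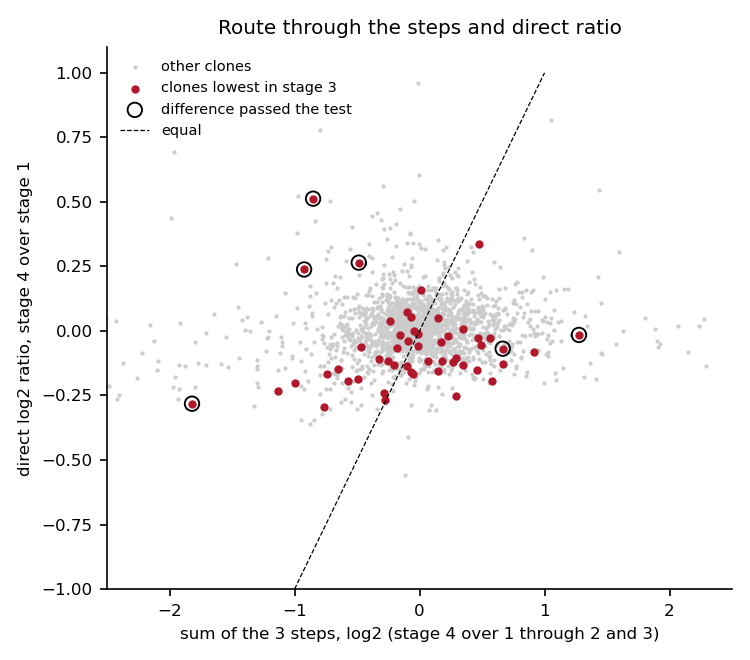
Direct log2 ratio of stage 4 over stage 1 (y axis) against the sum of the ratios of stage 2 over 1, 3 over 2 and 4 over 3 (x axis), for the 51 clones (red) and the others (grey, with 39 beyond the x axis), and a dashed line where both are equal. The red points spread over -1.82 to 1.28 along the sum and over -0.30 to 0.51 in the direct ratio, and circles mark the 6 clones whose difference passed.

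The 51 clones came from 15 of the 20 plates of the clone library. Plates 13 and 15 held 6 each and plates 6 and 10 held 5 each, whereas plates 2, 3, 7, 8 and 20 held none, plate 20 having no clone above background on at least 8 arrays. By print block the counts ran from 0 in block 12 to 7 in block 8, out of 120 clones each. Row B of plate 19, looked at after its values were seen, held 4 of the 51 in its 12 wells (Myt01-019B02, Myt01-019B04, Myt01-019B08 and Myt01-019B10), all in block 8. Of the 160 rows it had the highest median stage 4 over stage 3 ratio, 0.85, with 10 of its 12 clones above 0 on all 4 arrays and 5 at 1 or more, against a median of -0.01 and none at 1 or more among the 84 other clones of the plate. The rise was thus not limited to the chosen clones of the row. Myt01-019B03 rose by 1.28 with a stage 3 over stage 2 ratio of 0.05, and Myt01-019B05 rose by 1.34 with a ratio of -0.48. On the direct arrays all 12 clones of the row lay below 0 in the mean, from -0.25 to -0.01. Below 0 were 47.3% of all clones and 52.1% of those above background. Whether neighbouring wells hold the same transcript or shared a step of printing was not tested.

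**Figure D5:**
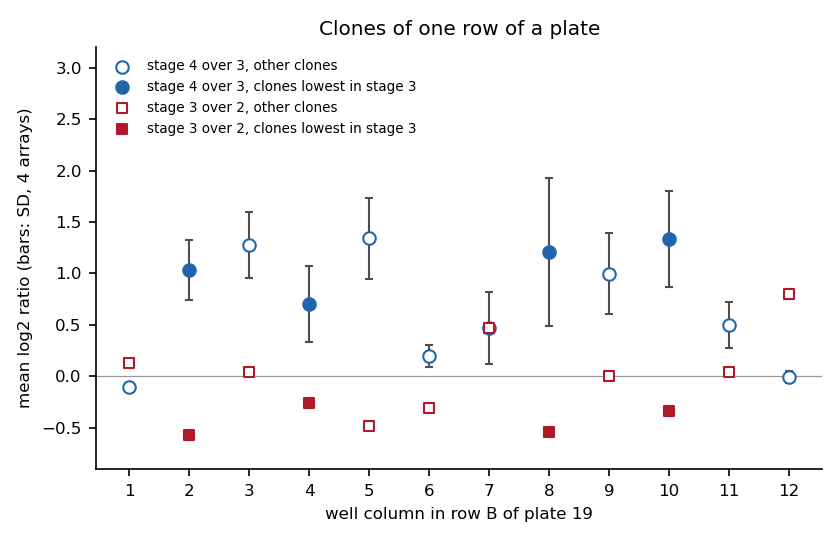
Mean log2 ratio of stage 4 over stage 3 (blue circles, with SD over 4 arrays) and of stage 3 over stage 2 (red squares) for the 12 clones in row B of plate 19, by well column, with the 4 chosen clones filled. Stage 4 over stage 3 is above 0 in 10 of the 12 wells and reaches 1 or more in 5, in chosen and other clones.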

How the data were processed

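Dual-colour arrays of 16 hybridisations of male mantle RNA, from single mussels per the labels, were used. GenePix scanner files that the authors deposited hold raw intensity per spot and dye, and a deposited value table has their log2 ratios. The methods describe offset background subtraction, loess, least squares and moderated statistics with B above 0, and the submitters' processing notes name limma. Groups, replicate numbers and dyes came from the labels, and every ratio was turned to later over earlier stage. Each array had 4560 spots, of which 3840 carried 1920 clones in duplicate.

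Here intensities were corrected by normexp (mean foreground, median background, offset 50) and normalized by print-tip loess, with control spots at weight 0, in limma 3.58.1 (R 4.3.3). Duplicates were averaged. Stages 2, 3 and 4 relative to stage 1 were fitted to 16 arrays (13 residual degrees of freedom), the 4 Stage4/Stage1 arrays alone, and each pair of stages with its own mean. P-values are two-sided and Benjamini-Hochberg adjusted over 1920 clones. The calculation was tested on simulated data. No array repeated another, and no spot was saturated. The number of arrays limits the precision. Clone-level correlation of deposited and scanner ratios was 0.86 to 0.978 per array, across clones.

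The members, lists and tests were chosen with earlier results of these data known. Clones were named, unless said otherwise, as the 2 largest in each direction from stage 1 to 2, from 2 to 3 downwards, from 3 to 4 upwards, and in the direct ratio, plus those nearest a limit. The named-gene and marker lists planned for annotated clones could not be applied, and no RefSeq sequence could be matched. Same-numbered arrays of different pairs had residuals correlated over 0.1 in 12 of 24 combinations (-0.24 to 0.324, median 0.0985), against 19 of 72 for different numbers (median -0.0506). Pairing was taken only where every same-numbered combination exceeded 0.1, so it was not taken here. Some combinations, such as Stage2/Stage1 with Stage4/Stage3, have no stage in common and so could share no mussel. This limit therefore cannot tell whether mussels were used on more than 1 array, and no conclusion is drawn from it. Figures were drawn with matplotlib 3.10.9 in Python 3.11.15.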

Additional observations from a re-analysis of the deposited data

Results flagged for a closer look

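Values over the 4 arrays of a pair were tested for a lone extreme in 40 sets, the 10 named clones in each of 4 pairs of stages. In all, 2 were flagged, no more than the 1 in 20 that chance gives, and the clones had been named for large values. Both were on Stage4/Stage1 replicate 3, at -0.89 for Myt01-016C08, with the other 3 arrays from -0.09 to 0.04, and at -0.57 for Myt01-018A05, with the others from -0.04 to -0.03. In 6 clones the sum of the steps and the direct ratio of stage 4 over stage 1 differed in the limma fit over pairs of stages. They were 11.8% of the 51, against 11.7% of all clones and 20.9% of those above background, so the share was not particular to the 51. The sum minus the direct ratio was 1.29 for Myt01-017E02, 0.73 for Myt01-005A10, -0.75 for Myt01-004E01, -1.16 for Myt01-010A05, -1.36 for Myt01-009A05 and -1.54 for Myt01-010H04. The arrays of the steps chose the clones, so these differences are a description.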

How the results depend on the processing

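Leaving out any 1 array gave 42 to 61 clones by the rule. It gave 2 to 6 clones lower from stage 1 to 2 (2 without Stage2/Stage1 replicate 1 or 2, and 3 without replicate 3), 40 to 46 from 1 to 3, 28 to 41 from 2 to 3, 38 to 43 higher from 3 to 4, 0 from 1 to 4 by either fit, and 3 to 7 (3 without Stage2/Stage1 replicate 3, Stage4/Stage3 replicate 3, or Stage4/Stage1 replicate 1 or 4) with steps unlike the direct ratio. With 1 array left out, 94 to 175 of all 1920 clones passed from 1 to 2 and 348 to 462 from 1 to 3, in either direction. It was 314 to 537 from 2 to 3, 306 to 468 from 3 to 4, 0 or 1 from 1 to 4 and 177 to 242 with unlike steps. On scanner values the rule found 14 clones without background correction, 19 with median centring and 22 with scaling between arrays. From stage 1 to 2, where 5 had passed, 3 passed with loess over the whole array, 2 with median centring, 3 on the deposited ratios, 2 at B above 0 and 3 with array weights. Of all 1920 clones 168 had passed in either direction, against 160, 186, 153, 80 and 125 in these settings. Median centring left 15 from 1 to 3, 20 from 3 to 4 and 3 with unlike steps (3 with the higher and 0 with the lower sum, against 2 and 4). Of all 1920 clones it left 178, 258 and 128 in either direction, against 427, 462 and 225. B above 0 left 23 from 1 to 3, 21 from 2 to 3, 24 from 3 to 4 and 1 with unlike steps, where 172, 198, 181 and 107 of all 1920 clones were left. With the replicate number as a block, 30 passed from 1 to 3 against 47, and 6, 33 and 40 from 1 to 2, 2 to 3 and 3 to 4, 0 on the direct arrays, 0 from 1 to 4 in the loop and 5 with unlike steps. Of all 1920 clones 320 then passed from 1 to 3, and 299, 454 and 446 from 1 to 2, 2 to 3 and 3 to 4. The block also gave 39 of all clones from 1 to 4 in the loop and 251 with unlike steps. In the loop fits it took up an offset common to all ratios as well. The stage estimates there, with the 30 and the 39, therefore changed beyond an adjustment for replicate. Without the 4 Stage4/Stage1 arrays, a setting added after seeing the data, 10 passed from 1 to 2, 26 from 1 to 3 and 8 from 1 to 4, where 161, 457 and 303 of all 1920 clones passed in either direction. The causes were not tested. Over 12 named values and 120 settings, with another processing or 1 array left out, none changed sign and 9 moved by more than 1 SD. Leaving out 1 of 4 arrays cannot move a mean by that much. Only the other processings could therefore count as moved, and the 120 overstates how far this was tried. Spots near background limit the ratios in stage 1 most, with 7 of the clones above background in 4 or fewer of its 8 channels.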
